A study of Mus musculus with 6 samples.

Results

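The Hedgehog pathway genes described here were *Gli1*, *Gli2*, *Gli3*, *Ptch1*, *Smo*, *Hhip*, *Sufu*, *Boc* and *Gas1*, a list of 9 of the 32285 genes in the count table. They were chosen by name for their place in the pathway, and all 9 were found in the table. Their transcripts were counted as UMIs (unique molecular identifiers, each standing for 1 captured transcript) by droplet-based 3′ single-cell RNA-Seq of striatal cells enriched with magnetic beads against ACSA2, an astrocyte surface antigen. All animals were wild-type male C57BL/6 mice (C57BL/6Jax in the study's methods), taken on postnatal day 3 (P3), an immature stage for astrocytes, or at the age of 3 months (3m), and each age had 3 libraries. Brains of several animals were pooled for each preparation, and no transgene or treatment was used, so ages are compared over pools of animals and not over single mice.

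Hedgehog ligands (Shh, Ihh and Dhh) are secreted proteins that bind the receptor Ptch1. Without ligand, Ptch1 holds the transmembrane protein Smo inactive, and bound ligand releases Smo to act in the primary cilium. The signal ends on the Gli transcription factors, of which Gli1 is an activator, Gli3 acts mainly as a repressor and Gli2 mainly as an activator. *Gli1*, *Ptch1* and *Hhip* are themselves targets of the pathway and are widely used as its readouts. Neurons are a known source of Shh for astrocytes in the adult brain.

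The genes lie on several chromosomes (GENCODE M21, build GRCm38): *Gli1* at chr10:127329882-127341974, *Gli2* at chr1:118834132-119053619, *Gli3* at chr13:15463235-15730026, *Ptch1* at chr13:63508328-63573598, *Smo* at chr6:29735503-29761365, *Hhip* at chr8:79965851-80058006, *Sufu* at chr19:46396896-46488804, *Boc* at chr16:44485049-44558897 and *Gas1* at chr13:60174405-60177365. All 9 are protein coding. RefSeq promoters (GRCm38.p6, 250 bases before to 50 bases after a gene's start) were matched for 7 of the 9, all but *Gli1* and *Boc*. They were searched on both strands for GACCACCCA, the consensus bound by Gli proteins, and for the shorter CCACCC, which lies inside that consensus. No member promoter held the consensus, which 0.253% of the 32817 promoters held. CCACCC was found in 4 of the 7 (2 copies in *Gli2*, 1 each in *Gli3*, *Hhip* and *Smo*), and 31.5% of the promoters held it. The first 2 sequences below belong to targets of the pathway whose transcripts differed between ages, and the third is the member promoter with most copies of CCACCC. Capitals mark CCACCC on either strand. In *Hhip* it covered positions -158 to -153 from the start, and in *Gli2* positions -205 to -200 and -192 to -187. The *Ptch1* start used by RefSeq lies inside the GENCODE gene.
Ptch1 (chr13:63565686-63565985, minus strand): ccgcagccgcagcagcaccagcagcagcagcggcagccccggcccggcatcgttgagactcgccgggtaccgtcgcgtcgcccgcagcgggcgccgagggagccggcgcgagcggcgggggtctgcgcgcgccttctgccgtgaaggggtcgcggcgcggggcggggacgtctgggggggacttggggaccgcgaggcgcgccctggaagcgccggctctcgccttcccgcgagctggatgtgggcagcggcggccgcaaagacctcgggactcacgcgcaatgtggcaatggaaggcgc
Hhip (chr8:80057959-80058258, minus strand): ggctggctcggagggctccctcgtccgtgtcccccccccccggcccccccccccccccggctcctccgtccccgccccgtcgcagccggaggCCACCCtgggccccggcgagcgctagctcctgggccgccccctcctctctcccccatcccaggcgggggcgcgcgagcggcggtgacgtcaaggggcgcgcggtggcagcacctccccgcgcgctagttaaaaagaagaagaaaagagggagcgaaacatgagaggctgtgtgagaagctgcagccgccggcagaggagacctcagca
Gli2 (chr1:119053570-119053869, minus strand): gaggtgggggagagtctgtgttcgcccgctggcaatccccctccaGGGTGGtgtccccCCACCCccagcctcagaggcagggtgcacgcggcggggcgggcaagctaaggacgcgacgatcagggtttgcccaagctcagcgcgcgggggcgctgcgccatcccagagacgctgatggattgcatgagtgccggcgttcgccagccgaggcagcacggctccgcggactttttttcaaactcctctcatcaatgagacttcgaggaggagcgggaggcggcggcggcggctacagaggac

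Each library held 5471573 to 10522151 UMIs at 3m and 32193875 to 37795021 at P3, and 37 barcode sequences occurred in more than 1 library. Astroglial cells, taken from the study's clusters without its multiciliated cluster 19, numbered 213 to 546 per 3m library and 1974 to 3736 per P3 library. Their 7 astroglial markers were all detected, summing to 14676 to 15411 CPM (counts per 1e6 UMIs of the same cells) at 3m and 24223 to 29281 at P3. Oligodendrocyte markers summed to 708 to 1864 CPM in the 3m and 5.4 to 6.4 in the P3 astroglial cells. Several sub-clusters came mostly from 1 library: sub-cluster 1 from P3 replicate 1 (1156 of 1211 cells), sub-clusters 4 and 12 from P3 replicate 3 (717 of 732 and 272 of 283), sub-cluster 14 from 3m replicate 1 (182 of 184) and sub-cluster 13 from 3m replicate 2 (168 of 202). The study's text placed sub-clusters 3, 4, 5, 10, 12, 15, 13 and 16 outside the telencephalon, and its description of the main lineage was used here to place 0, 1, 2, 9, 11, 7 and 14 inside. Sub-cluster 15, most of whose cells belonged to the multiciliated cluster, kept 52 cells and was left out of the comparisons by region. The regional markers did not follow this placement. The telencephalic genes *Lhx2* and *Emx2* summed to 239.6 to 440.4 CPM in P3 sub-clusters 3, 4, 5 and 10, above the 133 to 201 CPM of P3 sub-clusters 0, 1, 2 and 9, and to 211 CPM in sub-cluster 12. They were lowest in P3 sub-cluster 11 (37.1 CPM) and in 3m sub-clusters 13 (49.0 CPM) and 16 (60.3 CPM), against 311 and 305 CPM in 3m sub-clusters 7 and 14. The 8 listed genes of the diencephalon and brainstem summed to 26.5 CPM in sub-cluster 11, 52.7 CPM in sub-cluster 12 and 16.7 CPM in sub-cluster 13. Their sum was 4.02 CPM in sub-cluster 16 and 6.02 CPM or less in the others. Of these genes, *Irx1* was at 9.81 CPM in sub-cluster 11, 10.5 CPM in sub-cluster 12 and 6.68 CPM in sub-cluster 13. It was at 1.63 CPM or less in the others. *Zic1* differed from it, at 42.1 CPM in sub-cluster 12 and 0.43 CPM in sub-cluster 11. Sub-cluster 12 also carried 1540 CPM of pericyte markers, and P3 pericytes held 311 CPM of the 8 listed genes. The part of pericyte RNA in the values of sub-cluster 12 was not tested. The age comparisons by region are therefore given in both groupings for the members. Those of the other pathway genes and of the shares of cells are given by the study's placement only.

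Across the named cell types, *Gli1*, *Gli2*, *Ptch1* and *Gas1* had their highest mean in astroglial cells, and *Hhip* had it in adult oligodendrocytes. *Gli3* and *Boc* were highest in astroglial cells at 3m and in the multiciliated cluster at P3, where *Boc* (9.91 ± 2.27 CPM) overlapped with astroglial cells (7.72 ± 0.43 CPM). *Smo* was highest in the multiciliated cluster (59.6 ± 25.6 CPM) and *Sufu* in P3 neuronal cells (21.4 ± 15.5 CPM). Between clusters the values are a description, since the clusters were made from the same cells. At P3 the pooled astroglial markers summed to 26937 CPM in astroglial cells and 7849 CPM in oligodendrocyte precursors. They summed to 3531 CPM in P3 neuronal cells, 2445 CPM in P3 microglia and 2138 CPM in P3 pericytes. The part of astroglial RNA in the members' values of these other cell types was not tested. *Ptch1*, the ligand receptor, was at 149, 105 and 129 CPM in the astroglial cells of the P3 libraries and at 105, 238 and 123 CPM at 3m. Oligodendrocyte precursors (P3) had 56.8 ± 8.89 CPM (SD, n = 3) and oligodendrocytes (3m) 43.0 ± 6.40 CPM, while P3 pericytes had 19.2 ± 8.76 CPM and P3 microglia 14.7 ± 17.2 CPM. P3 neuronal cells, only 53, came second to astroglial cells by mean, and their libraries (156, 20.7 and 57.6 CPM) overlapped with them. At 3m a cluster of 68 cells to which the deposited annotation gives no cell type came second, at 59.2 ± 34.1 CPM. Its pericyte markers summed to 43464 CPM and its astroglial markers to 666 CPM. The astroglial libraries of both ages lay above every oligodendrocyte, pericyte and microglial library. *Gli3* was at 28.1 ± 3.57 CPM in P3 and 48.1 ± 6.60 CPM in 3m astroglial cells but at 1.94 ± 0.61 CPM in oligodendrocytes. The multiciliated cluster 19 held 48.5 ± 13.1 CPM of *Gli3*, above each P3 astroglial library. Its astroglial markers summed to 7039 CPM and its ependymal markers to 3247 CPM, against 66.9 CPM of ependymal markers in P3 astroglial cells. *Gas1*, a co-receptor, was at 131 ± 19.1 CPM in P3 astroglial cells. It was at 34.5 ± 20.9 CPM in P3 microglia, which should lack it, and at 1.80 ± 1.04 CPM in the largest endothelial cluster of P3. Another P3 endothelial cluster, of 339 cells, had 45.4 ± 26.8 CPM of *Gas1* and 4089 CPM of astroglial markers. P3 neuronal cells had 55.1 ± 33.2 CPM of *Gas1* and P3 oligodendrocyte precursors 48.8 ± 14.7 CPM. *Smo*, at 53.2, 30.5 and 35.4 CPM in P3 astroglial cells, overlapped with oligodendrocyte precursors (17.3 to 55.1 CPM) and microglia (17.8 to 36.4 CPM), and P3 pericytes (18.2 to 29.6 CPM) ended just below it.

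*Hhip*, a membrane protein that binds Hedgehog ligands and so limits them, was at 114, 102 and 89.3 CPM in the oligodendrocytes of the 3 adult libraries (1165 UMIs). In the adult astroglial cells of the same libraries it was at 0, 3.25 and 0.679 CPM (7 UMIs), and in adult microglia at 9.88, 19.9 and 0 CPM (3 UMIs). Adult microglia also carried 1551 CPM of oligodendrocyte markers. No adult astroglial library overlapped with the oligodendrocytes, and the astroglial mean (1.31 CPM) lay below that of adult microglia (9.91 CPM). Apart from *Ptch1* (43.0 CPM) and *Sufu* (3.56 ± 0.33 CPM), the other members were near 0 in oligodendrocytes, with *Gli1* at 0.30 ± 0.27 CPM and *Smo* at 1.23 ± 0.51 CPM.

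**Figure D1:**
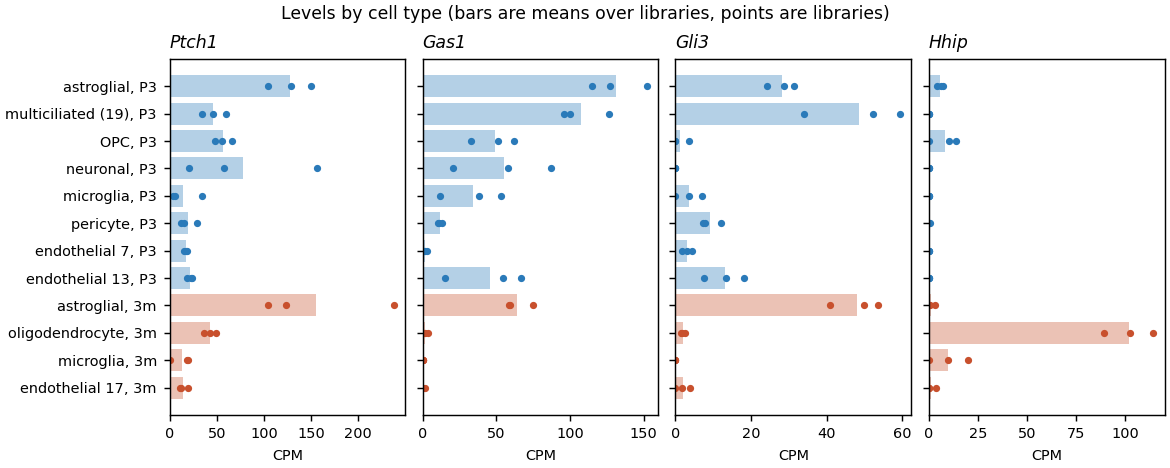
CPM of *Ptch1*, *Gas1*, *Gli3* and *Hhip* (x axes) by cell type and age (y axis). Bars are means over libraries with at least 10 cells and points are libraries. *Hhip* stands out in oligodendrocytes (89.3 to 114 CPM), and the other 3 genes are higher in astroglial cells than in oligodendrocytes.

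Among the P3 sub-clusters the members followed different orders, again as a description. *Ptch1* was highest in sub-cluster 11, with 317, 266 and 359 CPM in replicates 1 to 3, followed by sub-cluster 1 with 172, 241 and 339 CPM. These overlapped, and both lay above sub-cluster 9 (136 ± 22.7 CPM, n = 2) and all that followed, down to 43.3 ± 18.7 CPM (n = 2) in sub-cluster 15. *Hhip* was also highest in sub-cluster 11, with 28.5, 12.1 and 12.54 CPM, above each library of the next, sub-cluster 10 (8.36 ± 4.09 CPM). It was low in sub-clusters 3 (1.25 ± 1.37 CPM) and 5 (1.53 ± 0.87 CPM). No UMI was found in sub-clusters 12 and 15, which allows up to 7.90 and 7.57 CPM at 3 UMIs.

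Sub-cluster 10 had the highest mean of *Gas1* and *Gli3*. *Gas1* was at 304, 453 and 466 CPM there, with no overlap with the next, sub-cluster 5 (202 ± 41.9 CPM), and it fell away to 85.2 ± 24.4 CPM in sub-cluster 11. *Gli3* was at 87.3, 47.4 and 57.5 CPM in sub-cluster 10, which overlapped with sub-cluster 5 (46.0 ± 6.72 CPM), and lowest in sub-cluster 2, at 17.7, 11.9 and 15.4 CPM. *Gli1* was at 17.5, 14.6 and 26.5 CPM in sub-cluster 10 and overlapped there with sub-cluster 3 (13.3 ± 6.14 CPM) and with sub-cluster 15, whose 7 UMIs gave 30.1 and 15.1 CPM in 2 libraries. In sub-cluster 12 the 1 library with at least 10 cells had 14.9 CPM of *Gli1*. The remaining P3 sub-clusters held 4.38 to 10.0 CPM of *Gli1*, each overlapping with the next.

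The co-receptors did not share an order. *Boc* was at 10.5, 7.30 and 23.7 CPM in sub-cluster 10 and highest by mean in sub-cluster 1 (19.6 ± 18.0 CPM), with overlap down to sub-cluster 0. That mean rests on a library of 26 cells (40.4 CPM). With its libraries pooled, sub-cluster 1 was at 9.24 CPM, below the pooled 18.7 CPM of sub-cluster 10. *Cdon*, the third co-receptor beside *Boc* and *Gas1*, was at 44.0 ± 7.28 CPM in sub-cluster 10 and at 10.1 CPM or less, pooled, in every other P3 sub-cluster. *Ptch1* in sub-cluster 10 was at 71.6 ± 19.7 CPM.

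At 3m *Gli1* and *Ptch1* were highest in sub-cluster 13. *Gli1* was at 44.1 and 46.1 CPM there in replicates 2 and 3, the libraries with at least 10 such cells, against 0, 2.07 and 1.62 CPM in sub-cluster 7. This sub-cluster held 39 of the 45 *Gli1* UMIs of adult astroglial cells (86.7%) with 20.1% of their UMIs of all genes. It also held 55.9% of the *Ptch1* UMIs, at 468 and 400 CPM against 66.5, 89.1 and 82.4 CPM in sub-cluster 7. Its shares of *Smo* (36.4%), *Gli2* (33.3%) and *Boc* (28.3%) lay above 20.1% as well, those of *Gli3* (21.0%), *Sufu* (18.4%) and *Gas1* (15.2%) near or below it. *Smo* was at 61.8 and 30.7 CPM in sub-cluster 13, above sub-cluster 7 (0, 24.9 and 21.8 CPM) but overlapping with the 1 library of sub-cluster 14 (33.8 CPM). Sub-cluster 13 carried 1348 CPM of oligodendrocyte markers and sub-cluster 16 carried 15985 CPM, against 329 CPM in sub-cluster 7, and the part of oligodendrocyte RNA was not tested. Oligodendrocytes themselves held 43.0 CPM of *Ptch1* and 0.30 CPM of *Gli1*, below sub-cluster 13 for both.

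**Figure D2:**
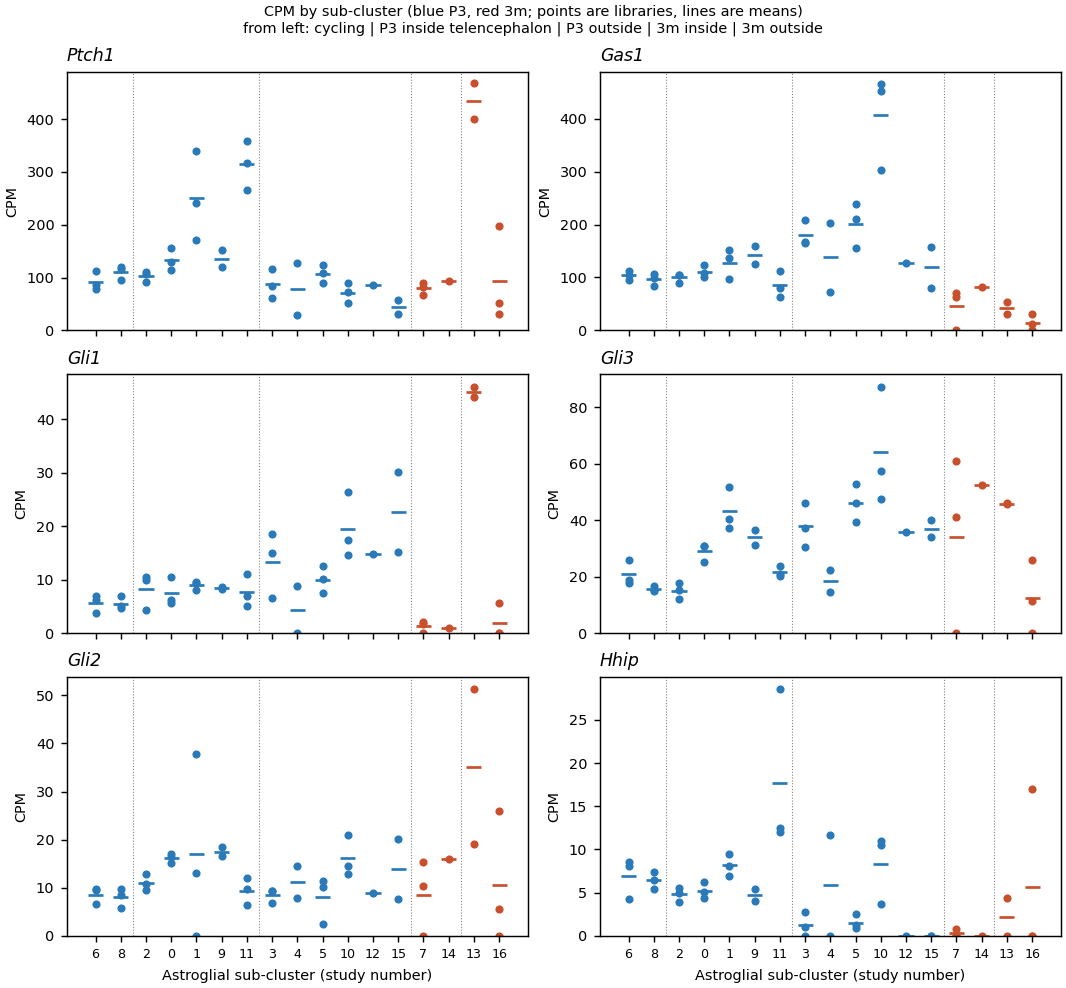
CPM (y axes) of 6 members in each astroglial sub-cluster (x axis, the study's numbers), ordered as cycling, P3 inside, P3 outside, 3m inside and 3m outside the telencephalon by the study's placement. Points are libraries with at least 10 cells and lines are their means. *Gli1* and *Ptch1* peak in 3m sub-cluster 13, *Gas1* in P3 sub-cluster 10 and *Hhip* in P3 sub-cluster 11.

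The comparison of 3m with P3 asks how the pathway's transcripts differ between immature and mature astrocytes. The median mitochondrial share of astroglial cells was 8.18%, 5.97% and 6.05% in the 3m libraries and 2.47%, 1.74% and 1.26% in the P3 libraries, without overlap, and its part in the age differences was not tested. Calls required an adjusted p of no more than 0.05 (edgeR's quasi-likelihood test) together with a log2 fold change of 1 or more in either direction. Over all astroglial cells, 1 of the 9 members was called, *Hhip*, which was lower at 3m. Among the 13469 genes tested, 16% were called lower and 15.9% higher. *Hhip* was at 7.21, 4.05 and 6.13 CPM at P3 and at 0, 3.25 and 0.679 CPM at 3m, and no library overlapped (log2 fold change -1.70 ± 0.60 SE, adjusted p = 0.029). This call was lost without 3m replicate 1 (adjusted p = 0.0823), without 3m replicate 3 (adjusted p = 0.119) and without cycling cells (adjusted p = 0.0591). Under a stricter filter on cells (over 1000 genes, under 5% mitochondrial UMIs), which left 12, 137 and 88 adult cells, its log2 fold change was -0.00046 (adjusted p = 0.99987). Fewer cells with a transcript and less of it per cell cannot be told apart in these sums.

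Another 3 members passed the adjusted p without reaching that fold, where 48.9% of all genes passed at any fold. *Gli3* was at 31.3, 24.2 and 28.7 CPM at P3 and 53.6, 49.9 and 40.7 CPM at 3m (log2 fold change 0.96 ± 0.17, adjusted p = 0.000344). *Gas1* was at 127, 115 and 152 CPM at P3 and 75.2, 59.1 and 58.4 CPM at 3m (-0.86 ± 0.17, adjusted p = 0.000859). *Gli2* was at 11.4, 12.9 and 11.3 CPM at P3 and 16.4, 13.02 and 19.7 CPM at 3m (0.63 ± 0.24, adjusted p = 0.0392). In none of these did the libraries of the ages overlap.

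The adult libraries disagreed with each other on *Gli1*, which stood at 0.864, 17.9 and 7.47 CPM at 3m (1, 33 and 11 UMIs) against 9.01, 5.54 and 10.3 CPM at P3. The 2 adult libraries with more *Gli1* held 168 and 31 of the 202 cells of sub-cluster 13. Its pooled difference was 0.42 ± 0.48 (adjusted p = 0.488), it turned to -0.74 without 3m replicate 2, and without sub-cluster 13 it was -2.09 (adjusted p = 0.00365). *Ptch1* likewise went from 0.49 ± 0.26 (adjusted p = 0.134) to -0.27 (adjusted p = 0.217) without sub-cluster 13 and to -0.03 without 3m replicate 2. *Smo*, *Sufu*, which holds Gli proteins in the cytoplasm, and *Boc* did not pass the test, with log2 fold changes of -0.16, 0.16 and 0.58. The median over the 9 members was 0.42, beside -0.04 over all genes tested.

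**Figure D3:**
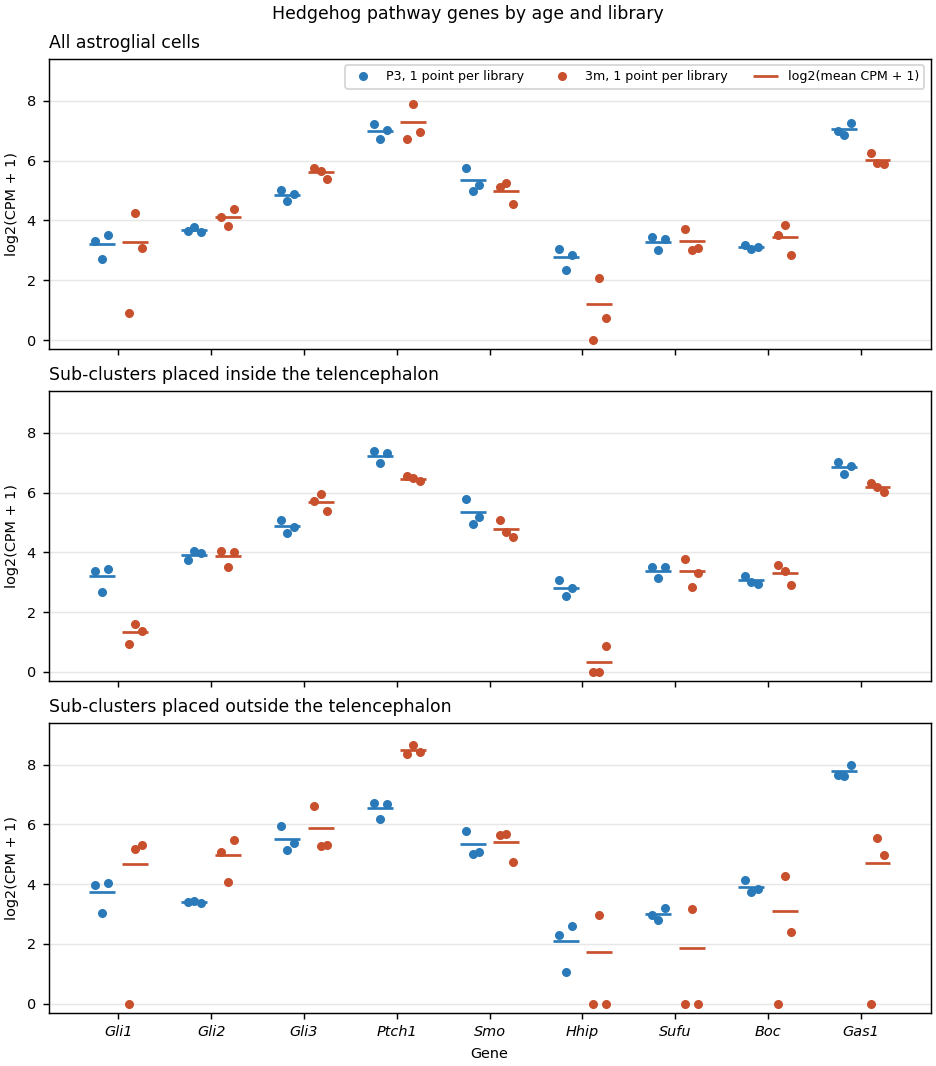
log2(CPM + 1) (y axes) of the 9 members (x axis) in each library at P3 and 3m, in all astroglial cells and in the sub-clusters placed inside and outside the telencephalon. Lines mark the log2 of the mean CPM plus 1. *Gli1* spans 0.864 to 17.9 CPM over the 3m libraries in the top panel, lies below the P3 libraries in the middle one and above them in 2 of 3 libraries in the bottom one.

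Inside the telencephalon as placed by the study (P3 sub-clusters 0, 1, 2, 9 and 11 against 3m sub-clusters 7 and 14), *Gli1* and *Hhip* were called lower and *Gli3* higher at 3m. Of the 12335 genes tested, 14.3% were called lower and 15.4% higher. *Gli1* was at 9.48, 5.44 and 9.86 CPM in the P3 libraries and at 0.912, 2.06 and 1.61 CPM (5 UMIs) in the 3m libraries, without overlap (log2 fold change -2.22 ± 0.54, adjusted p = 0.00176). *Hhip* fell from 7.39, 4.78 and 5.98 CPM to a single UMI in all adult cells (adjusted p = 0.000355). From the summed UMIs it was 19.9-fold lower, with a 95% counting interval of 3.54 to 789. *Gli3* was at 33.0, 24.1 and 27.6 CPM at P3 and 51.1, 60.8 and 41.1 CPM at 3m (1.05 ± 0.19, adjusted p = 7.98e-05). This fold lay close to the threshold, and 6 of the 16 alternatives put it below, at 0.84 to 0.94.

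*Ptch1* was at 165, 126 and 158 CPM at P3 and 92.1, 88.7 and 82.1 CPM at 3m, a lower value in every adult library (-0.57 ± 0.17, adjusted p = 0.0079). *Gas1* moved the same way, from 130, 98.1 and 118 CPM to 79.4, 71.2 and 63.6 CPM (-0.49 ± 0.17, adjusted p = 0.0207). Both passed the adjusted p without the fold, as did 47.7% of all genes at any fold counting those called. *Gli2*, *Smo*, *Sufu* and *Boc* did not pass, with log2 fold changes from -0.38 (*Smo*) to 0.45 (*Boc*). Under the stricter filter on cells *Gli1* was at -0.88 (adjusted p = 0.458).

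Outside the telencephalon as placed by the study, *Ptch1*, *Gli1* and *Gli2* were called higher and *Gas1* lower at 3m, 4 of the 7 members that could be tested. Of the 8500 genes tested, 15.1% were called higher and 13.4% lower. The adult side rested on 17, 261 and 50 cells. *Ptch1* was at 105, 71.8 and 103 CPM at P3 and 326, 404 and 343 CPM at 3m, with no overlap (2.31 ± 0.25, adjusted p = 1.05e-08). *Gli1* was at 14.6, 7.18 and 15.3 CPM at P3 and 0, 35.5 and 39.1 CPM at 3m, so that the ages overlapped through 1 adult library (1.86 ± 0.40, adjusted p = 0.000453). The library at 0 had 61425 UMIs of all genes, where 3 UMIs would be 48.8 CPM, and the call was lost without 3m replicate 2 (1.60, adjusted p = 0.125). *Gli2* was at 9.71, 9.87 and 9.30 CPM at P3 and 32.6, 16.01 and 43.4 CPM at 3m, also without overlap (1.65 ± 0.42, adjusted p = 0.00261), lost without 3m replicate 3 (adjusted p = 0.0711).

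*Gas1* was at 201, 197 and 256 CPM at P3 and 0, 45.7 and 30.4 CPM at 3m, without overlap (-2.18 ± 0.32, adjusted p = 3.38e-06). *Smo*, *Gli3* and *Boc* gave 0.58, 0.36 and 0.42 and did not pass. *Hhip* and *Sufu* had too few UMIs to be tested. Without sub-clusters 4 and 12, or without sub-cluster 16, the same 4 members were called. Oligodendrocyte markers summed to 23362, 3540 and 2852 CPM in these adult cells and to 5.03 to 6.80 CPM at P3, and their part in the members' values was not tested.

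The difference between these age effects was tested directly as an interaction. The age effect outside minus inside was 3.59 ± 0.63 for *Gli1* (adjusted p = 0.000159), 2.77 ± 0.18 for *Ptch1* (adjusted p = 1.57e-10), 1.69 ± 0.45 for *Gli2* (adjusted p = 0.00862) and -1.79 ± 0.31 for *Gas1* (adjusted p = 0.000142). The call of *Gli2* was lost without 3m replicate 3 (1.30, adjusted p = 0.138) and without the 2% of cells with most UMIs (1.17, adjusted p = 0.133), and its value was -0.58 (adjusted p = 0.914) under the stricter filter, which left 4, 54 and 3 adult cells outside. For *Gli3* it was -0.92 ± 0.30 (adjusted p = 0.0315). Of 8 members tested, 3 were called higher and 1 lower, where 8.16% and 8.27% of 9952 genes were.

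Because most P3 cells placed outside carried the highest telencephalic markers and the adult ones low levels of them, the comparison was repeated after seeing the data, with sub-clusters grouped by *Lhx2* and *Emx2*. Low in both were P3 sub-cluster 11 and 3m sub-clusters 13 and 16. Sub-cluster 16 was left out at first for its oligodendrocyte markers, so that 11 was compared with 13 in the 2 adult libraries with at least 10 such cells. All other non-cycling sub-clusters but 15 formed the high group. In the high group *Gli1* (-2.36, adjusted p = 0.00224) and *Hhip* (adjusted p = 0.00291) were again called lower, as were 14.1% of genes. *Gli3* (0.90, adjusted p = 0.00105) fell short of the fold there and was no longer called. *Ptch1* (-0.34, adjusted p = 0.124) did not pass, while *Gas1* (-0.78, adjusted p = 0.00188) again passed without the fold. In the low group *Gli1* was at 11.1, 5.02 and 6.97 CPM at P3 and 44.1 and 46.1 CPM at 3m (2.79 ± 0.45, adjusted p = 7.13e-07). *Gli2* (1.70) and *Gli3* (1.30) were also called higher there, as were 10.1% of genes.

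For *Ptch1* and *Gas1* the result depended on the grouping. *Ptch1* in the low group was already at 317, 266 and 359 CPM at P3, and at 468 and 400 CPM at 3m (0.69 ± 0.24, adjusted p = 0.0274), which was no call. *Gas1* was at 80.8, 63.3 and 111 CPM at P3 and 54.4 and 30.7 CPM at 3m (-0.61 ± 0.32, adjusted p = 0.168). The difference of the age effects, low minus high, remained called for *Gli1* (4.74 ± 0.75, adjusted p = 4.50e-08) and *Gli2* (1.65 ± 0.57, adjusted p = 0.0371), where 2.61% of genes were called higher. It was 0.93 ± 0.18 for *Ptch1* (adjusted p = 8.20e-06) and 0.11 ± 0.30 for *Gas1* (adjusted p = 0.896). With sub-cluster 16, which held 1 *Gli1* UMI, added to the low group, *Gli1* there was at 0, 36.2 and 39.4 CPM at 3m and had too few UMIs for a test of its own. Its difference of age effects remained called (4.40 ± 0.73, adjusted p = 1.72e-05), while that of *Gli2* did not (1.53 ± 0.54, adjusted p = 0.0513). Whether P3 and 3m cells of 1 group share an origin was not tested.

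**Figure D4:**
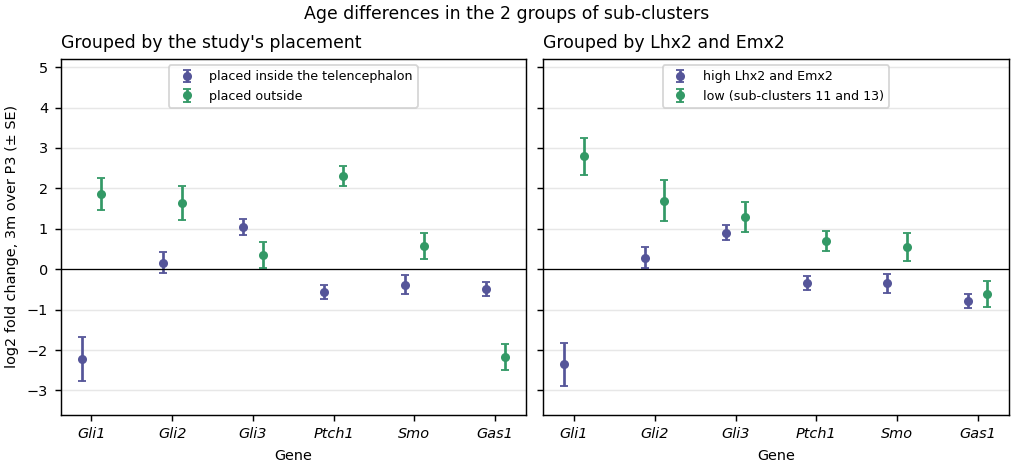
log2 fold change of 3m over P3 with its SE (y axis) for 6 members (x axis), in sub-clusters grouped by the study's placement (left) and by *Lhx2* and *Emx2* (right). *Gli1* is below 0 in 1 group and above 0 in the other in both panels, while *Gas1* differs between the groups only on the left (-0.49 and -2.18, against -0.78 and -0.61).

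The other pathway genes were described from lists by role. Of the 3 ligand genes, *Shh* had 5 UMIs in the neuronal cluster of P3 (all of the table's neuronal cells numbered 53) and none in astroglial cells. *Dhh* was the ligand transcript of astroglial cells, with 109, 122 and 87 UMIs in the P3 libraries and 0 in each 3m library, so at least 6.21-fold lower at 3m against a floor of 3 UMIs over the group. Of these P3 UMIs, 244 lay in cycling cells, which adult libraries lacked. The bound was 1.97-fold without cycling cells and 2.61-fold inside the telencephalon. It was called lower, the only ligand gene tested. *Disp1*, which releases ligand from the cell, was called higher at 3m, at 8.58 ± 0.96 CPM against 2.75 ± 0.15 CPM at P3 (1.81 ± 0.31, adjusted p = 0.000304). *Lrp2*, a ligand-binding endocytic receptor, had 264 UMIs at P3 and 0 at 3m, at least 5.16-fold lower, and 2.11-fold inside the telencephalon. These were the 2 called of 4 tested genes of ligand release and uptake, and inside the telencephalon they were called the same way, the only 2 tested. Of the other receptors and co-receptors 1 was tested and none was called.

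Of the 14 genes of intracellular transduction, all tested, 1 was called in astroglial cells, *Gpr161*, a ciliary receptor that restrains the pathway (lower, -1.70 ± 0.67, adjusted p = 0.0487). Of the 6 genes of ciliary transport 1 was called, *Ift172* (higher, 1.08 ± 0.28, adjusted p = 0.00594). Of the 8 other targets, 5 were tested, with *Nkx6-2* called higher and *Ccnd1* and *Mycn* lower. The medians were -0.11 for transduction, 0.26 for ciliary transport and -0.27 for the targets, beside -0.04 over all genes. *Ccnd1*, the D-type cyclin of the cell cycle, averaged 133 ± 25.6 CPM in P3 and 2.47 ± 1.62 CPM in adult astroglial cells (-5.45 ± 0.32).

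Inside the telencephalon *Gpr161* (-1.84) and *Ift172* (1.10) were again the called genes of transduction and ciliary transport, and 3 of the 4 tested targets were called, *Nkx6-2* higher (2.81) and *Ccnd1* (-6.01) and *Nkx2-2* lower. Outside, *Tulp3*, a regulator of traffic into the cilium, was called higher (1.38, 1 of 9 tested for transduction) and the ciliary motor gene *Kif3a* lower (-1.57, 1 of 6 tested). Of the 5 targets tested outside, *Nkx2-2* and *Nkx6-2* (1.79) were called higher and *Ccnd1* (-3.32) and *Mycn* (-1.94) lower. The difference of the age effects, outside minus inside, was called for 3 genes of these lists, *Nkx2-2*, *Nkx6-2* (-1.38 ± 0.30, adjusted p = 0.00138) and the ciliary transport gene *Ift122* (-1.48 ± 0.41, adjusted p = 0.0115). The medians of the members were -0.38 inside and 0.58 outside, beside -0.03 and -0.06 over all genes.

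*Nkx2-2* was lower at 3m inside the telencephalon, at 25.2 ± 4.07 CPM at P3 against 8.52 ± 1.99 CPM (-1.38 ± 0.29, adjusted p = 0.000455), and higher outside, at 3.22 ± 1.07 CPM at P3 against 55.2 ± 23.3 CPM (4.01 ± 0.39). The difference of these effects was 5.36 ± 0.49, and it is given for the study's placement only. *Nkx2-2* and *Nkx6-2* are also genes of the oligodendrocyte lineage, whose markers summed to 201 to 353 CPM in adult cells inside and 2852 to 23362 CPM outside, against 5.03 to 6.80 CPM at P3, and their part in these values was not tested. The 9 immediate early genes, which respond to cell handling, were all called lower at 3m and summed to 131 to 199 CPM against 3307 to 4190 CPM at P3, and their part in the members' values was not tested.

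Along the study's pseudotime, which orders cells from cycling sub-cluster 6 to adult sub-clusters 7 and 14, P3 cells were taken from bins 2 to 14 and 3m cells from bins 15 to 19, so the last step is also a step in age. Within P3 the values are a description. *Gli3* went from 21.1 ± 3.0 CPM in bins 2 to 7 to 10.5 ± 2.7 CPM in bins 8 to 11, then through 19.1 ± 4.2, 30.7 ± 3.4 and 34.8 ± 3.9 CPM in bins 12, 13 and 14 to 49.9 ± 9.8 CPM at 3m. *Boc* stood at 3.9 ± 0.3 CPM in bins 2 to 7 and 9.1 ± 1.0 CPM in bin 14, and *Ptch1* at 98.2 ± 11.0 and 156 ± 10.7 CPM. All 3 libraries were higher in bin 14 than any in bins 2 to 7 for these 3 genes and for *Gli2*. *Gli1* (5.6 ± 1.4 against 8.0 ± 2.8 CPM) overlapped between these bins. In bins 15 to 19 *Ptch1* was back at 89.9 ± 6.8 CPM and *Gli1* at 1.9 ± 1.1 CPM, each adult library below each of bin 14.

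**Figure D5:**
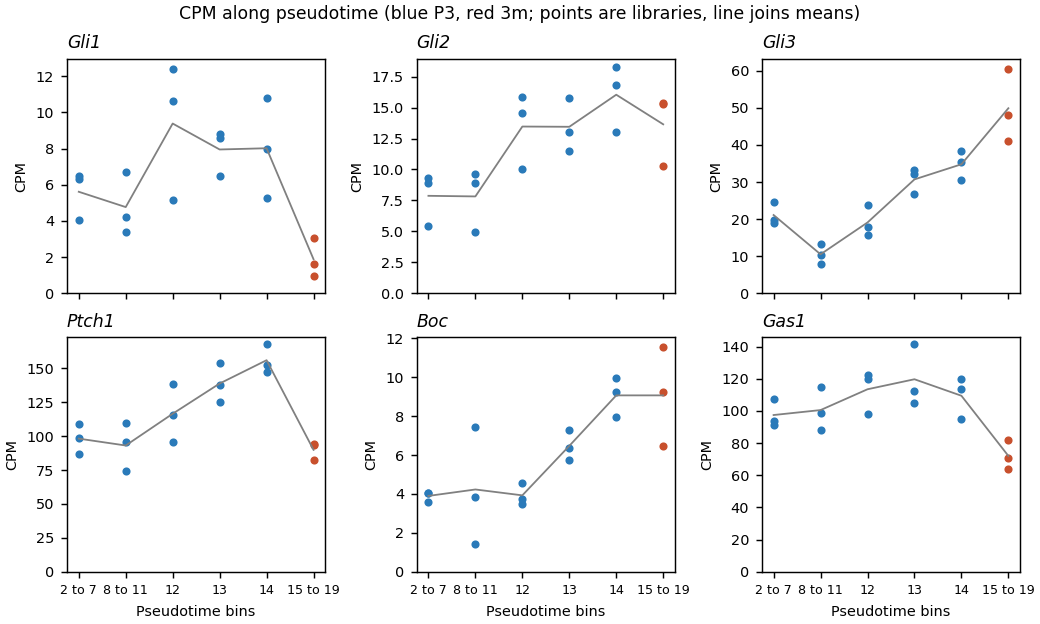
CPM (y axes) of 6 members in groups of pseudotime bins (x axis). Points are libraries, P3 for bins 2 to 14 and 3m for bins 15 to 19, and the line joins means. *Gli3* is at its lowest in bins 8 to 11 (10.5 CPM) and highest at 3m (49.9 CPM), whereas *Ptch1* peaks in bin 14 (156 CPM) and is lower at 3m.

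Within P3, cycling astroglial cells (at least 2 of *Mki67*, *Top2a* and *Cdk1* detected, 1266 cells) were compared with the 7512 others, with library as a block. No member was called, where 9% of 13207 genes were called higher and 9.78% lower. At any fold, 6 members passed lower (*Gli1*, *Gli2*, *Gli3*, *Ptch1*, *Boc* and *Gas1*) and 1 higher (*Hhip*), where 32.1% and 31.5% of all genes did. *Boc* was at 5.90, 4.79 and 3.09 CPM in cycling and 9.01, 8.26 and 9.197 CPM in other cells (-0.79 ± 0.18, adjusted p = 0.00127). *Gli3* was at 21.9, 16.05 and 17.996 against 34.8, 27.4 and 32.1 CPM (-0.62 ± 0.09, adjusted p = 1.19e-05). *Gli1* was at 6.39, 3.59 and 6.17 against 10.0, 6.29 and 11.7 CPM (-0.66 ± 0.16, adjusted p = 0.00155), lower within each library. *Hhip* was at 7.70, 5.27 and 8.74 against 7.02, 3.58 and 5.29 CPM (0.60 ± 0.18, adjusted p = 0.0077). Cycling cells were deeper, with a median of 14800 against 6674 UMIs, and with cells thinned to 2000 UMIs before the split none of these 7 passed. Thinning also cut the cycling cells from 330, 464 and 472 per library to 164, 198 and 203. An effect of depth therefore cannot be told apart from a loss of power. After thinning, the log2 fold change was -0.098 for *Gli3* (adjusted p = 0.841) and 0.35 for *Hhip* (adjusted p = 0.728). It was larger than before for *Gli1* (-0.85, adjusted p = 0.292) and *Boc* (-1.37, adjusted p = 0.115). Among the other lists *Dhh* was called higher in cycling cells, at 12.1 ± 1.07 against 1.34 ± 0.40 CPM (3.31 ± 0.20), with *Gpc3* also higher and *Stk36* and *Nkx6-2* lower.

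A *Gli1* UMI was found in 459 of the non-cycling P3 astroglial cells, which were deeper (median 8311 UMIs) than the 7053 others (6585 UMIs). *Ptch1* was at 217, 143 and 152 CPM in them and at 156, 110 and 136 CPM in the others, higher within each library but with an adjusted p just above the threshold (0.32 ± 0.07, adjusted p = 0.0514). *Gas1* was at 168, 140 and 197 against 132, 124 and 164 CPM (0.24 ± 0.07, adjusted p = 0.183), and within the sub-clusters placed outside the telencephalon at 0.67 (adjusted p = 8.57e-06). With the fold threshold, 2 of the 7336 genes tested there were called higher and 1 lower, *Gas1* not among them. Of these sub-clusters, sub-cluster 10 had the highest mean of both *Gas1* (407 CPM) and *Gli1* (19.5 CPM). The part of the mix of sub-clusters in this difference was not tested. None of the other 8 members passed over the non-cycling P3 astroglial cells, and 0.103% of the 12608 genes tested, *Gli1* among them, did at any fold. By DESeq2 the adjusted p of *Ptch1* was 0.947. Outside the members, *Ccnd1* was higher in *Gli1*-detected cells (0.44, adjusted p = 0.00077), though the libraries overlapped. It was among the 13 genes that passed, 7 higher and 6 lower, with *Gli1* counted. Others of these had larger folds, such as *Actr3b* (0.70) and *Agt* (-0.85). No gene met the rule for naming beyond *Gli1*, which defined the split.

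The share of cells with a UMI was compared after thinning each cell to 2000 UMIs, which left out 212 adult and 1112 P3 astroglial cells. Before thinning the median depths were 3982 UMIs at 3m and 8463 at P3 inside the telencephalon, and 2736 and 4614 outside. With 3 against 3 libraries an exact permutation test cannot go below p = 0.1, so none of the 27 shares could pass. Inside the telencephalon *Ptch1* was detected in 13.98%, 16.3% and 11.9% of adult cells and 26.1%, 21.9% and 26.4% of P3 cells, without overlap (p = 0.1, exact permutation, two-sided, adjusted p = 0.3). Outside, it was detected in 36.4%, 50.5% and 54.3% of adult cells against 18.1%, 14.1% and 17.04% at P3. In microglia, which should lack it, the thinned share was 5.66% at 3m and 3.81% at P3, at median depths of 3940 and 6223 UMIs. *Gli1* was found in 0.444% of adult and 1.38% of P3 cells inside, and in 5.65% and 2.36% outside, with 0 of 53 adult and 0 of 105 P3 microglia, which allows up to 5.66% and 2.86%. For *Gli1* these limits lie at or above the astroglial shares, so its shares cannot be set apart from background by microglia. Endothelial cells had 1 of 757 at P3 (0.132%). Unthinned, *Ptch1* was detected in 26.8% of adult and 61.8% of P3 cells inside the telencephalon.

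The genes whose levels over the 13 P3 sub-clusters with at least 50 cells were most like those of *Gli1* were *Arfip1*, *Ctdsp1*, *Crtc1*, *Asl* and *Camk1* (Pearson's r of log2(CPM + 1) from 0.91 to 0.94, of 8545 genes with a mean of at least 10 CPM). The points share libraries and depth, and the values are a description. Of the members, *Gli3* (r = 0.74) and *Boc* (r = 0.69) were closest to *Gli1*. Among the 8545 genes *Gli3* held only rank 223, and *Boc*, *Hhip* and *Sufu* were not ranked. *Ptch1* (r = -0.44), *Hhip* (r = -0.59) and *Sufu* (r = -0.69) went the other way. For *Ptch1* the closest member was *Hhip* (r = 0.66).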

How the data were processed

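Droplet-based 3′ single-cell RNA-Seq libraries of ACSA2-enriched striatal cells were analysed, 3 at P3 and 3 at 3m, grouped by their labels. The deposited table held UMI counts of 16690 barcodes, which the authors made with Cell Ranger on mm10 and merged without normalization. The authors also deposited cluster names, astroglial sub-clusters (Seurat, given as 3.1.1 in the submitters' processing notes) and a Slingshot pseudotime score with bins, for cells that had more than 500 genes and less than 10% of UMIs from mitochondria. Cell types were taken from that annotation, and doublets were not removed.

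Sums of UMIs over the cells of each library were tested with edgeR 4.0.16 (quasi-likelihood, TMM, filterByExpr, Benjamini-Hochberg over all genes tested, two-sided) in R 4.3.3. P-values therefore measure the spread between pooled preparations. DESeq2 1.42.0, other scalings, filters, thinning and leaving out each library were alternatives. Scripts were tested on simulated data. CPM are per 1e6 UMIs of the same sum, given as mean ± SD over libraries with at least 10 cells. Errors of log2 fold changes are SE, taken for edgeR as the absolute log2 fold change divided by the square root of the test's F. Intervals and floors (3 UMIs) cover counting error only, at 95%. Total UMIs were 5471573 to 10522151 per 3m and 32193875 to 37795021 per P3 library, so low genes were less precise at 3m.

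The members and gene lists were chosen with earlier results of these data known. Named genes were the 9 members, called genes of the other lists, and the 5 genes most like *Gli1*. For the split by *Gli1*, the rule also took the 5 largest rises and falls among called genes with at least 50 CPM and no overlap of libraries. *Ccnd1*, *Nkx2-2* and *Cdon* values beyond called lists were singled out after they were seen. Same-numbered libraries of the ages deviated together in astroglial sums (r = 0.42, 0.18 and 0.14) and telencephalic sums (r = 0.53, 0.30 and 0.20). Outside they did not (r from -0.02 to 0.04). Replicates 2 and 3 also went together across numbers, at r = 0.19 and 0.16 in astroglial and 0.17 and 0.14 in telencephalic sums. Only replicate 1 stood apart, with r from -0.37 to -0.23 across numbers in these sums. The fit with same-numbered libraries as a replicate block kept every call of a member. A further planned split of P3 cells is not reported here.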

Additional observations from a re-analysis of the deposited data

Results flagged for a closer look

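The difference of the age effect between the sub-clusters placed outside and inside the telencephalon was tested directly for 8 members (edgeR). At an adjusted p of at most 0.05 with the fold threshold, 3 were called higher and 1 lower, where 8.16% and 8.27% of 9952 genes were. *Gli3* passed the adjusted p without the fold, and the share of all genes passing at any fold was not counted. The difference was 3.59 for *Gli1*, 2.77 for *Ptch1*, 1.69 for *Gli2*, -0.92 for *Gli3* and -1.79 for *Gas1* on the log2 scale. With sub-clusters grouped by *Lhx2* and *Emx2* it was 4.74, 0.93, 1.65, 0.16 and 0.11. That of *Gli2* did not pass without 3m replicate 3 (1.30, adjusted p = 0.138) or with sub-cluster 16 added to that grouping (1.53, adjusted p = 0.0513), and was -0.58 under the stricter filter on cells. The 3m cells behind it number 17, 261 and 50 per library in the study's placement. With 3 libraries per group, single libraries could not be tested as outliers.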

How the results depend on the processing

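Of 646 log2 fold changes of members under alternatives, 577 kept their direction and side of the threshold, 36 reversed, 24 lost a call and 9 gained one. The cause was not tested for any of them. The number of members called between ages was 1 over all astroglial cells. It was 2 with no scaling beyond library totals, 0 under the stricter filter on cells (over 1000 genes, under 5% mitochondrial UMIs), which left 12, 137 and 88 adult cells, of which 4, 54 and 3 outside, so that it says little of stability, 0 without cycling cells and 2 without sub-cluster 13. It was 3 inside the telencephalon, 1 under the stricter filter and 0 with libraries thinned to the smallest total. Outside it was 4, and 2 and 1 under the same alternatives. For the interaction it was 4, and 2 both under the stricter filter and with sub-clusters grouped by *Lhx2* and *Emx2*. Sub-cluster 16 added to that grouping gave 2 and 1. Leaving out 1 library gave 0 to 1, 1 to 3, 3 to 4 and 4 to 5 called. No scaling reversed *Sufu* (-0.029 in astroglial, -0.016 inside, -0.11 in cycling cells) and *Gli2* inside (-0.033). The stricter filter reversed *Gli1* (-0.53) and *Gli2* (-0.032) in astroglial cells, *Gli2* inside (-0.086), *Smo* outside (-0.54) and *Gli2* in the interaction (-0.58). Without sub-cluster 13, *Gli1* was -2.09 and *Ptch1* -0.27. Thinned libraries gave -0.079 for *Gli2* inside, and leaving out sub-clusters 1 and 14 gave -0.012 for *Sufu* inside. Without the 2% of cells with most UMIs, *Gli3* outside was -0.083 and *Sufu* in the interaction 0.10. The grouping by *Lhx2* and *Emx2* turned the interaction of *Gli3* (0.16), *Sufu* (0.11), *Boc* (0.52) and *Gas1* (0.11), and with sub-cluster 16 that of *Gli3* was 0.21 and of *Boc* 0.47. Cells thinned before the split gave -0.52 for *Smo* and -0.33 for *Sufu* in the cycling split. Outside alone, *Smo* was 0.30 in the *Gli1* split. Over libraries left out in turn, astroglial *Gli1* ranged from -0.74 to 0.81, *Ptch1* from -0.033 to 0.66, *Smo* from -0.39 to 0.12 and *Sufu* from -0.13 to 0.26. *Sufu* ranged from -0.11 to 0.34 inside, from -8.57 to 0.38 in the interaction and from -0.029 to 0.10 in cycling cells, and *Boc* outside from -1.71 to 0.65. In the *Gli1* split *Boc* ranged from -0.059 to 0.53 and *Gli2* from -2.28e-05 to 0.54. The interaction of *Gli2* lost its call without 3m replicate 3 (1.30, adjusted p = 0.138), and *Hhip* inside could be fitted in 3 of the 6 such fits. No scaling moved the median of all genes from -0.04 to -0.22 (astroglial), -0.03 to -0.23 (inside), -0.06 to -0.40 (outside) and -0.03 to -0.17 (cycling), and the genes called higher and lower from 2137 and 2161 to 1778 and 2696, from 1899 and 1758 to 1533 and 2294, from 1280 and 1137 to 880 and 1956, and from 1189 and 1291 to 984 and 1669. The replicate block gave 1, 3 and 4 members called in the 3 age comparisons. Leaving out sub-clusters and the grouping by *Lhx2* and *Emx2* were chosen after seeing the data. At 3m fewer UMIs limit the low genes, *Gli1* and *Hhip* above all.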
